A study of Mus musculus with 26 samples.

Results

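The small leucine-rich proteoglycans, a family of secreted matrix proteins, were followed through 7 genes: Lum (lumican), Dcn (decorin), Bgn (biglycan), Fmod (fibromodulin), Ogn (osteoglycin), Prelp and Aspn (asporin). Members were all probe sets that the array annotation gave to 1 of these symbols alone, whatever their values. They came to 18 probe sets of 45101 on the array, and to 7 of the 18193 genes with a probe set of their own. Lum had 1 probe set, Bgn had 3, Fmod had 6, and Dcn, Ogn, Prelp and Aspn had 2 each. Probe sets of 1 gene share a target, so they are not independent measurements of it.

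Proteins of this family carry a chain of leucine-rich repeats that bends into a curved solenoid and docks on collagen fibrils, and most carry chondroitin, dermatan or keratan sulphate chains. Docked on collagen, they limit how fibrils grow and fuse, and decorin, biglycan and asporin also bind TGF-beta. In connective tissue they are made mainly by fibroblasts, which in the mammary gland lie around the ducts and alveoli and among the adipocytes of the fat pad. RefSeq GRCm38.p6 places Dcn next to Lum on chromosome 10, Prelp next to Fmod on chromosome 1, Aspn and Ogn on either side of Omd on chromosome 13, and Bgn on chromosome X.

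RNA came from whole inguinal mammary glands, 1 Affymetrix mouse genome 430 array per labelled sample, 26 arrays in all. At day 9 of lactation there were 10 arrays of an advanced intercross line (AIL), 5 coded AQ and 5 coded AC, beside 3 of QSi5 and 3 of CBA/CaH. At day 12 of pregnancy there were 5 arrays of QSi5 and 5 of CBA/CaH. QSi5 and CBA/CaH are inbred strains, the first bred for large litters, and the AIL was their cross in generation 14. What AQ and AC stand for is not given in the sources used here, nor is the age of the animals. Values are log2 units as deposited, and levels of different probe sets are not compared. The design asked how the gland differed between the stages, between the strains, and between the intercross and its parents.

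Calls rest on a limma adjusted p under 0.05, by Benjamini-Hochberg over 45037 probe sets. The labels name a mouse as the source of each sample and do not say whether any shared an animal, so p-values measure the spread between these arrays. In whole glands, fewer cells of a type, less RNA per cell and a smaller share of all the RNA cannot be told apart. Array medians lay between 5.13 and 5.22 in AIL arrays, between 5.26 and 5.30 in the lactating parents and between 5.00 and 5.14 in pregnancy. Of the 26 arrays, 7 stood apart from their group, over 1 log2 unit above its median in muscle, brown fat or B cell markers or in the Gapdh 3' minus 5' difference, a sign of RNA integrity. Of the 7, 2 were pregnant CBA/CaH arrays with brown fat markers, 3 pregnant QSi5 arrays, 1 lactating QSi5 and 1 AIL AC. The mean level of 12 fibroblast markers, among them Pdgfra, Thy1 and Vim, was between 6.63 and 8.47 over the arrays.

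Lumican fell most at lactation among the genes taken by their brightest probe set. At lactation day 9 against pregnancy day 12, 9 of the 18 member probe sets were lower and 0 higher in CBA/CaH, and 9 were lower and 1 higher in QSi5. Of all probe sets tested, 20.7% were called lower and 32.3% higher in CBA/CaH, and 23.1% lower and 35.9% higher in QSi5. In each strain 5 of the 9 lower probe sets belonged to Fmod. With each gene taken by its probe set of highest mean, Lum, Ogn and Prelp were lower in CBA/CaH and Lum and Ogn in QSi5, with no gene higher. The QSi5 count, 2 of 7 genes, is near the share of all probe sets called lower. Counts this small do not set the family as a whole apart from those shares. With each gene taken as the mean of its probe sets, Lum, Fmod and Aspn were lower in both strains, while Ogn (adjusted p = 0.0789 in CBA/CaH and 0.102 in QSi5) and Prelp (0.0648 and 0.231) were not called. The median difference over the 7 genes was -1.25 in CBA/CaH and -0.68 in QSi5, beside 0.17 and 0.19 over all probe sets. The mean level of the fibroblast markers was lower at lactation as well, between 6.63 and 6.83 in the parental arrays, against 7.21 to 8.47 in the pregnant ones, and its part in these counts was not tested. Without the 7 arrays that stood apart, 9 member probe sets were called in CBA/CaH and 6 in QSi5, where only Lum was left among the brightest probe sets.

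**Figure D1:**
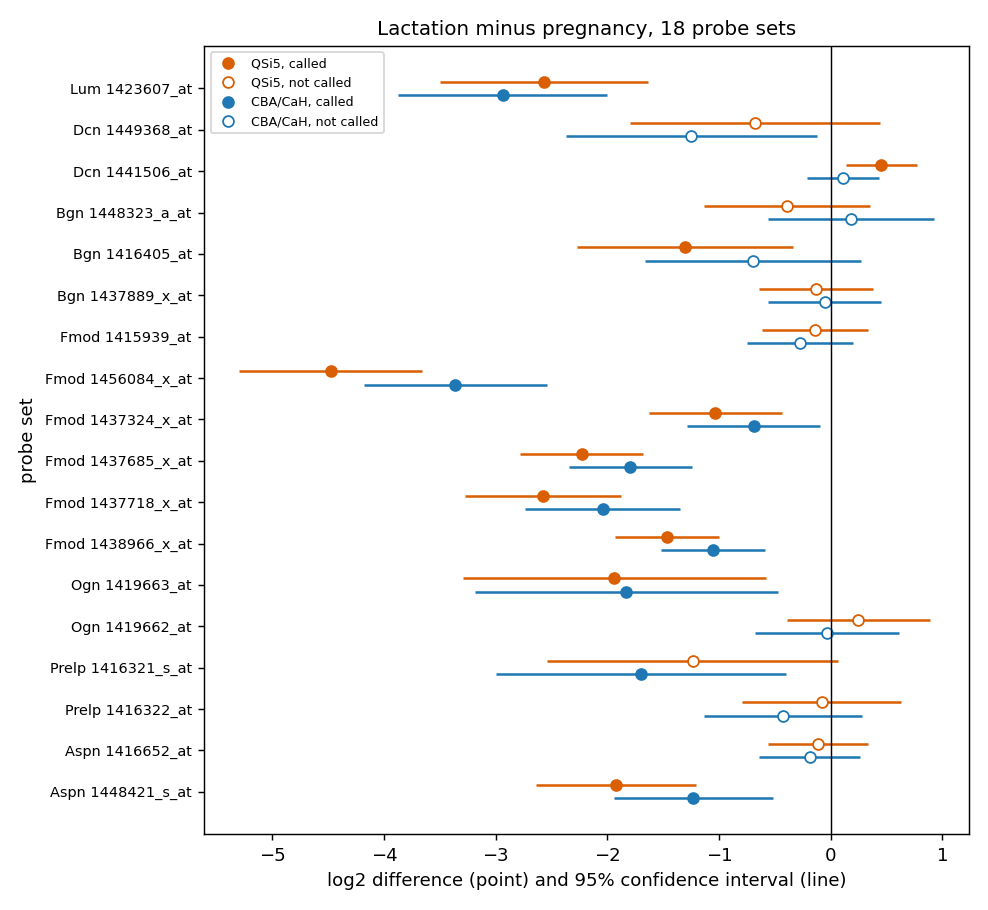
Log2 difference, lactation minus pregnancy (x axis), for each of the 18 member probe sets (y axis) in QSi5 (orange) and CBA/CaH (blue), with 95% confidence intervals as lines; filled points were called at an adjusted p under 0.05. Lum and 5 of the 6 Fmod probe sets were called left of 0 in both strains, while the remaining Fmod probe set was not called, at -0.14 in QSi5 and -0.27 in CBA/CaH.

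Lumican carries keratan sulphate and sets fibril diameter and spacing. Its probe set 1423607_at read 6.56, 6.99 and 6.60 in lactating CBA/CaH glands, against 9.74, 8.75, 9.60, 11.05 and 9.14 in pregnant CBA/CaH glands. In QSi5 it read 7.42, 6.30 and 6.74 at lactation, against 9.87, 8.91, 10.18, 8.63 and 9.37 at pregnancy. Every lactating parental array lay below every pregnant one, and pregnant CBA/CaH array 4 was the highest of all. Lum fell by 2.94 in CBA/CaH (SE 0.44, 7.67-fold, limma adjusted p = 7.59e-05). Its fall in QSi5 was 5.93-fold, a difference of -2.57 (SE 0.44, adjusted p = 0.000174). The CBA/CaH difference was rank 355 of 45037 from the lowest. Lum stayed called in both strains under every alternative run, with each array left out in turn.

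Decorin, the family member best known for binding TGF-beta and damping receptor tyrosine kinases, overlapped between the stages on its bright probe set and was not called there. Dcn 1449368_at read 8.79, 8.65 and 8.70 in lactating CBA/CaH glands, against 10.41, 8.54, 10.32, 11.61 and 8.94 in pregnant ones. Pregnant CBA/CaH array 2 lay below all 3 lactating arrays, array 5 just above them, and array 4 highest. The difference was -1.25 (SE 0.53, limma adjusted p = 0.0581). Without pregnant CBA/CaH array 2 it was -1.60 and without array 5 -1.50, with adjusted p of 0.0123 and 0.0267. In QSi5 the probe set read 9.51, 8.77 and 9.01 at lactation, against 9.27, 10.04, 10.28, 10.32 and 8.96 at pregnancy, with overlap and a difference of -0.68 (SE 0.53, limma adjusted p = 0.279). The second probe set, Dcn 1441506_at, never passed 4.78 on any array. It was called higher in QSi5 by 0.45 (limma adjusted p = 0.0171), a call lost without lactating QSi5 array 3 (0.28, adjusted p = 0.132) and with array medians set equal (0.23, 0.203). It was lost as well under quantile normalization (0.14, 0.462), with only the groups compared in the fit (0.45, 0.0643) and without the arrays standing apart (0.56, 0.0521).

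Biglycan, the X-linked relative of decorin that can signal through Toll-like receptors when freed from the matrix, gave 3 probe sets with unlike results. The brightest, Bgn 1448323_a_at, read 8.33, 8.61 and 8.61 in lactating CBA/CaH glands, against 8.07, 7.55, 8.35, 9.57 and 8.15 in pregnant ones. In QSi5 it read 8.05, 8.53 and 8.06 at lactation, against 8.38, 8.08, 8.82, 9.32 and 8.45 at pregnancy. Both pairs of groups overlapped, with differences of 0.18 (95% interval -0.56 to 0.92) and -0.39 (-1.14 to 0.35). Bgn 1416405_at fell by 1.31 in QSi5 (SE 0.46, limma adjusted p = 0.0223), where 7.78, 7.91 and 7.50 at lactation stood below 8.55, 8.22, 9.13, 10.54 and 8.74 at pregnancy. That call was lost without lactating QSi5 array 1 (-1.33, adjusted p = 0.0537) or array 3 (-1.19, adjusted p = 0.0756), and also once the arrays standing apart were dropped (-0.74, 0.222). In CBA/CaH the same probe set differed by -0.69 (adjusted p = 0.209), and Bgn 1437889_x_at by -0.05 in CBA/CaH and -0.13 in QSi5, neither called. Quantile normalization turned the last value to 0.61 (adjusted p = 0.0459).

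Fibromodulin, which shares a collagen site with lumican, split by probe set. The brightest, Fmod 1415939_at, read 7.04, 7.38 and 6.98 in lactating CBA/CaH glands, against 7.35, 7.05, 7.59, 7.88 and 7.15 in pregnant ones, and 7.26, 6.73 and 7.32 in lactating QSi5 glands, against 7.21, 6.68, 7.54, 7.53 and 7.27 in pregnant ones. The stages overlapped in both strains, with differences of -0.27 (95% interval -0.75 to 0.20) and -0.14 (-0.62 to 0.33). The other 5 Fmod probe sets, all with the suffix _x_at, were called lower at lactation in both strains with no overlap of arrays. On these arrays that suffix marks sets holding probes that can also match other transcripts, and which transcripts these bind was not tested.

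Of those 5, Fmod 1456084_x_at differed most. It read 6.20, 5.32 and 5.72 in lactating CBA/CaH glands, against 9.18, 9.03, 8.83, 9.16 and 9.36 in pregnant ones, a difference of -3.36 (SE 0.39, limma adjusted p = 7.05e-06). In QSi5 it read 4.53, 4.01 and 4.36 at lactation, against 8.64, 8.29, 8.75, 10.33 and 7.89 at pregnancy. The difference was -4.48 (SE 0.39, limma adjusted p = 3.04e-07), rank 50 of 45037 from the lowest. Those QSi5 lactating values lay below the array medians and were not shown to stand above background, so no fold is given. Pregnant CBA/CaH arrays 2 and 5, the lowest of their group in Dcn, read 9.03 and 9.36 in this probe set, where array 3 was lowest and array 5 highest. Fmod 1437718_x_at differed by -2.04 in CBA/CaH and -2.58 in QSi5, Fmod 1437685_x_at by -1.79 and -2.23, and Fmod 1438966_x_at by -1.06 and -1.47. Fmod 1437324_x_at differed by -1.03 in QSi5 (adjusted p = 0.00555) and by -0.69 in CBA/CaH (adjusted p = 0.04997). Leaving out any 1 CBA/CaH array but pregnant array 1 ended that second call (adjusted p between 0.0712 and 0.127), and without the arrays standing apart the QSi5 difference was -0.46 (0.0756). With Fmod taken as the mean of its 6 probe sets, the stage difference was -1.54 in CBA/CaH and -1.99 in QSi5 (SE 0.25 in each), called in both.

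**Figure D2:**
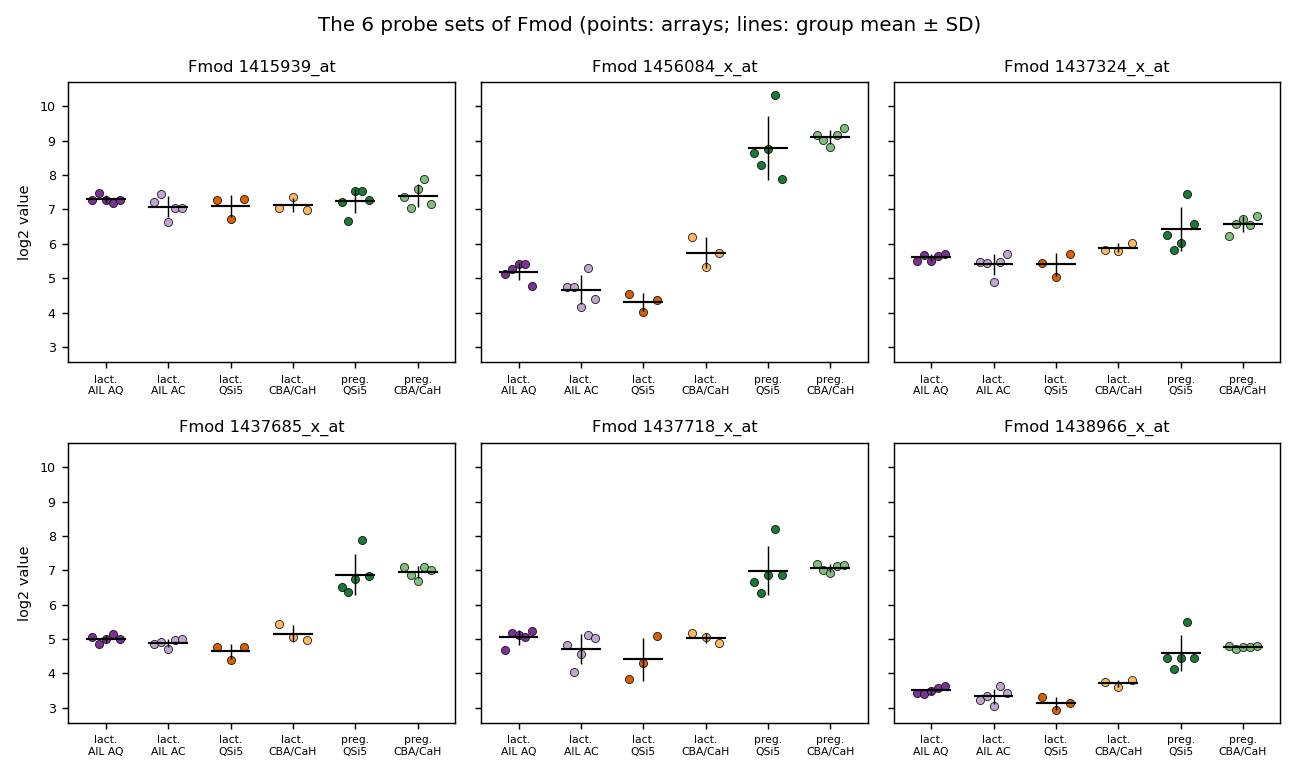
Log2 value (y axis, shared) of the 6 Fmod probe sets in the 6 groups (x axis), 1 point per array, with group means and SD as lines. Fmod 1415939_at stays between 6.63 and 7.88 on all 26 arrays, while Fmod 1456084_x_at lies between 4.01 and 6.20 at lactation and between 7.89 and 10.33 at pregnancy.

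Prelp, a basement membrane and cartilage protein that binds collagen and heparan sulphate, lies beside Fmod in the genome. Prelp 1416321_s_at read 6.11, 5.97 and 5.46 in lactating CBA/CaH glands, against 6.67, 5.32, 7.76, 8.96 and 9.02 in pregnant ones. Pregnant CBA/CaH array 2 lay below all lactating arrays of that strain and arrays 4 and 5 far above. The fall of 1.70 (SE 0.61, limma adjusted p = 0.0293) was not called without pregnant CBA/CaH array 4 (-1.34, adjusted p = 0.0686) or array 5 (-1.33, adjusted p = 0.0646), nor without any 1 of the 3 lactating CBA/CaH arrays (adjusted p between 0.0505 and 0.105). In QSi5 it read 6.15, 5.79 and 5.95 at lactation, against 7.48, 7.29, 7.15, 6.61 and 7.48 at pregnancy. Those groups did not overlap, yet the difference of -1.24 (SE 0.61, limma adjusted p = 0.0931) was not called with the spread shared over all parental arrays. With the spread taken from QSi5 alone its adjusted p was 0.00146. Prelp 1416322_at was not called, at -0.43 in CBA/CaH and -0.08 in QSi5, except in CBA/CaH without pregnant array 2 (-0.74, adjusted p = 0.0165).

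The neighbours Fmod and Prelp are shown by the 300 bases around their starts because both hold the same short motif. The windows (RefSeq, GRCm38.p6, 250 bases before to 50 after the start, 5′ to 3′ on the gene's strand) are chr1:134037004-134037303, plus strand, for Fmod and chr1:133921352-133921651, minus strand, for Prelp. Capitals mark CAGAC, the core of the SMAD box through which TGF-beta signalling acts, read on both strands.
Fmod: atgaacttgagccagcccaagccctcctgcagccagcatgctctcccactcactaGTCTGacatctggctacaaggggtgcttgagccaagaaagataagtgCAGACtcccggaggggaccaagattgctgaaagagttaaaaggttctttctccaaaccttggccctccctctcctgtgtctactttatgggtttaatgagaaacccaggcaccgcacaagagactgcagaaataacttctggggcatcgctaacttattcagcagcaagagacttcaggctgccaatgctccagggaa
Prelp: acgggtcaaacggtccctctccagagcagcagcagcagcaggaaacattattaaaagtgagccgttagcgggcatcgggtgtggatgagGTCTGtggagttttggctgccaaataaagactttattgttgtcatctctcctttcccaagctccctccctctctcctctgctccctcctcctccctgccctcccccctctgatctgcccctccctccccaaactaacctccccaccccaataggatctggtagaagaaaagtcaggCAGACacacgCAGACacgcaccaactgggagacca
Fmod holds 2 matches and Prelp 3. CAGAC occurs in 49.6% of the 32851 promoters of the table, and neither window holds the TATA box letters TATAAA, the AP-1 motif TGANTCA or the STAT motif TTCNNNGAA.

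Osteoglycin, also called mimecan, takes part in collagen fibril assembly and is found in bone, cornea and vessel walls. Ogn 1419663_at read 4.24, 4.31 and 4.79 in lactating CBA/CaH glands, against 6.12, 5.64, 6.10, 8.22 and 5.31 in pregnant ones. In QSi5 it read 4.93, 4.19 and 4.12 at lactation, against 6.38, 5.19, 5.95, 8.40 and 5.83 at pregnancy. The stages did not overlap in either strain, and array 4 was the highest pregnant array in both. This probe set was called lower at lactation in both strains, with limma adjusted p of 0.0252 for CBA/CaH (-1.83) and 0.0168 for QSi5 (-1.94). The SE was 0.64 for each. Every lactating parental value here lay under the array medians, and without a detection call none was shown to exceed background. For that reason Ogn is given no fold. In CBA/CaH the call was lost without pregnant array 4 (-1.35, adjusted p = 0.051) and without lactating array 1 (-1.73, 0.0741) or 2 (-1.76, 0.0725). In QSi5 it was lost without lactating array 2 (-1.83, adjusted p = 0.057) or 3 (-1.79, 0.0593), and with the arrays standing apart dropped (-1.26, 0.147). The other probe set, Ogn 1419662_at, gave -0.04 in CBA/CaH and 0.25 in QSi5, neither called, although its QSi5 arrays at lactation (5.20, 5.33 and 5.24) lay just above those at pregnancy (5.14, 4.85, 5.11, 4.97 and 4.97).

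Asporin, which binds collagen and TGF-beta and carries an aspartate stretch in place of a sugar chain, was dim on both probe sets, whose values lay mostly below the array medians. Aspn 1448421_s_at read 3.49, 3.17 and 3.44 in lactating CBA/CaH glands, against 4.71, 3.78, 4.32, 5.52 and 4.63 in pregnant ones. In QSi5 it read 3.16, 3.23 and 3.23 at lactation, against 5.24, 4.08, 5.30, 5.52 and 5.50 at pregnancy. No arrays overlapped between the stages, and pregnant array 2 was the lowest pregnant array in each strain. The stage difference, with an SE of 0.34 in each strain, was -1.23 for CBA/CaH (limma adjusted p = 0.00665) and -1.92 for QSi5 (0.000208). No detection call was used here, so it was not shown that the lactating values stood above background, and no fold is given. These calls held under every alternative that tested the probe set, whose mean under 5 left it out of the filtered fit. Aspn 1416652_at differed by -0.19 and -0.12, with overlap, and was not called in either strain.

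Of the 5 members with a window, only Ogn and Aspn, near each other on chromosome 13, hold the TATA box letters TATAAA. The windows, cut like those above, are chr13:49607765-49608064, plus strand, for Ogn and chr13:49544193-49544492, plus strand, for Aspn. Capitals mark TATAAA on either strand.
Ogn: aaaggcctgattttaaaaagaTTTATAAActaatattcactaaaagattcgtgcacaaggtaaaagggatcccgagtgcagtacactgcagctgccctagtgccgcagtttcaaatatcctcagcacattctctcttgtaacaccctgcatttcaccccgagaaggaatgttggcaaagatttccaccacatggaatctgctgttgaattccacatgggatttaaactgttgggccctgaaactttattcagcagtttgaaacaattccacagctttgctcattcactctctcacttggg
Aspn: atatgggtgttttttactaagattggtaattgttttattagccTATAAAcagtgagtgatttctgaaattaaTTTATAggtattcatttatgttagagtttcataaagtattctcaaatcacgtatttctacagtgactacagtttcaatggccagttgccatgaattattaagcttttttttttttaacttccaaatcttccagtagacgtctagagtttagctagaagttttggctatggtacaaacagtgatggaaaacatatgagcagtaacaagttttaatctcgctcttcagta
TATAAA occurs in 13.6% of the 32851 promoters. Ogn has 2 matches, 1 on each strand, which overlap, and Aspn has 2 that do not. All lie in the upstream part of the window, and whether any serves as a TATA box was not tested. Neither window holds CAGAC, nor the AP-1 motif that 7.81% of promoters hold, nor the STAT motif that 8.3% hold. The window of Bgn holds none of the 4 motifs. Of the 7 members, 5 had a window in the table.

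No member's stage difference was called unlike between the strains. For the stage difference in QSi5 minus that in CBA/CaH, limma called 0 of 18 member probe sets, 0 at an unadjusted p under 0.05, beside 0.0533% of all probe sets higher and 0.0511% lower. For Lum that difference was 0.37 (95% interval -0.95 to 1.69), and for Fmod 1456084_x_at it was -1.11 (-2.27 to 0.05). With 16 arrays, these intervals leave room for stage differences that are unlike between the strains by up to their bounds.

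Between QSi5 and CBA/CaH at pregnancy, limma called 0 of 18 member probe sets, with 0 at an unadjusted p under 0.05, beside 0.651% of all probe sets higher and 0.442% lower. At lactation it called 0 of 18, with 2 at an unadjusted p under 0.05, beside 0.144% higher and 0.144% lower. Both of those 2 were Fmod probe sets. Fmod 1456084_x_at read 4.53, 4.01 and 4.36 in lactating QSi5 glands, against 6.20, 5.32 and 5.72 in lactating CBA/CaH glands, without overlap, a difference of -1.44 (SE 0.43, unadjusted p = 0.00424, limma adjusted p = 0.423). It was called with only these groups in the fit (adjusted p = 0.0303), with array weights (0.0308), with the Gapdh value as a covariate (0.0228) and without both pregnant arrays 4 (0.0176). Fmod 1438966_x_at differed by -0.59 (unadjusted p = 0.0284, limma adjusted p = 0.843). For Lum the strain difference was 0.11 (95% interval -0.94 to 1.15) at lactation and -0.26 (-1.07 to 0.55) at pregnancy.

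In the lactating intercross, lumican lay within the range of the pregnant parental arrays. Against CBA/CaH at lactation, 6 of the 18 member probe sets were higher and 1 lower in AIL glands, beside 14.7% higher and 17.4% lower of all probe sets. Against QSi5, 11 were higher and 0 lower, beside 15.7% and 20.3%. By the brightest probe sets Lum, Dcn, Ogn and Prelp were higher than in CBA/CaH, and Lum, Dcn, Bgn, Ogn and Prelp higher than in QSi5. The median difference over the 7 genes was 0.97 against CBA/CaH and 0.85 against QSi5, beside -0.07 and -0.08 over all probe sets. With all 26 arrays in 1 fit, 5 probe sets were called against CBA/CaH, and 3 against QSi5, Lum and both Ogn sets. Dcn 1449368_at was then called against CBA/CaH (adjusted p = 0.0157) and not against QSi5 (0.0699), and Prelp 1416321_s_at (0.125 and 0.168) was called against neither parent. The mean level of the fibroblast markers was between 7.04 and 7.52 in AIL arrays, against 6.63 to 6.83 in the lactating parents, and its part was not tested. Both comparisons share the 10 AIL arrays, and the 6 parental arrays also served in the stage comparisons, so these results are not independent of each other.

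**Figure D3:**
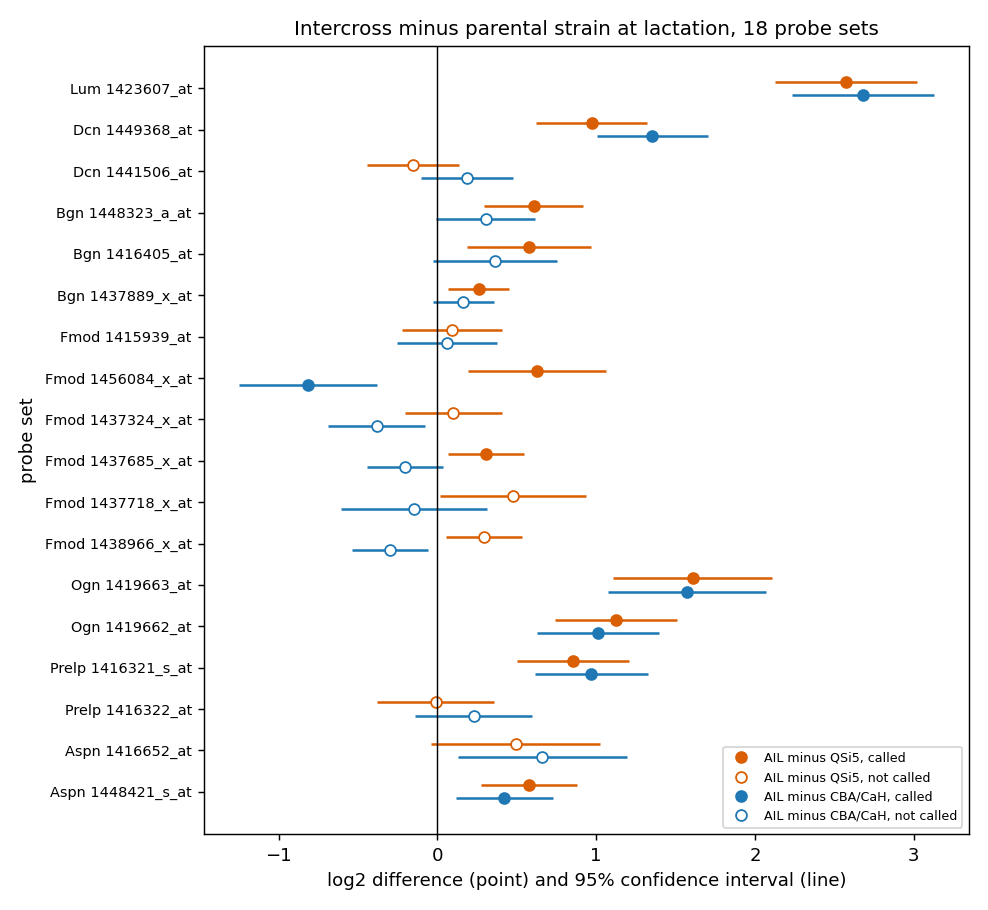
Log2 difference, AIL minus parental strain at lactation (x axis), for the 18 member probe sets (y axis), against QSi5 (orange) and CBA/CaH (blue), with 95% confidence intervals as lines; filled points were called. Lum lies farthest to the right at 2.57 and 2.68, and Fmod 1456084_x_at lies on opposite sides of 0, at 0.63 against QSi5 and -0.82 against CBA/CaH.

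Over the 10 AIL arrays Lum had a lowest value of 8.92, a median of 9.39 and a highest of 9.87, against 6.56, 6.99 and 6.60 in CBA/CaH and 7.42, 6.30 and 6.74 in QSi5. The AIL arrays did not overlap either lactating parent. Lum was higher by 2.68 than in CBA/CaH (SE 0.21, 6.41-fold, limma adjusted p = 7.63e-08) and by 2.57 than in QSi5 (SE 0.21, 5.95-fold, adjusted p = 1.14e-07), rank 49 and rank 66 of 45037 from the highest. In the order of the 6 group means, pregnant CBA/CaH (9.66 ± 0.87, SD), AIL AQ (9.47 ± 0.40), pregnant QSi5 (9.39 ± 0.64) and AIL AC (9.33 ± 0.26) overlapped their neighbours. Lactating QSi5 (6.82 ± 0.56) and CBA/CaH (6.72 ± 0.24) overlapped each other and no other group.

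Dcn 1449368_at ran between 9.61 and 10.46 in AIL arrays, with a median of 10.10, against 8.79, 8.65 and 8.70 in CBA/CaH and 9.51, 8.77 and 9.01 in QSi5. All AIL arrays were above all lactating parental arrays, with QSi5 array 1 the closest. The difference was 1.35 against CBA/CaH (SE 0.17, limma adjusted p = 1.15e-05) and 0.97 against QSi5 (SE 0.17, adjusted p = 0.00026). Dcn 1441506_at was not called, at 0.19 and -0.15.

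Both Ogn probe sets were higher in AIL glands. Ogn 1419663_at ran between 5.44 and 6.60 with a median of 6.04, against 4.24, 4.31 and 4.79 in CBA/CaH and 4.93, 4.19 and 4.12 in QSi5. Ogn 1419662_at ran between 5.75 and 6.90 with a median of 6.44, against 5.46, 5.52 and 5.12 in CBA/CaH and 5.20, 5.33 and 5.24 in QSi5. Neither set overlapped with its parents. The differences on 1419663_at were 1.57 and 1.61, and on 1419662_at 1.01 and 1.12, against CBA/CaH and QSi5 in turn, with limma adjusted p between 6.78e-05 and 0.000457 for Ogn. On 1419662_at the AIL group means of 6.36 and 6.40 lay above every other group mean of that probe set, pregnancy included, of which the highest was 5.40.

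Prelp 1416321_s_at ran between 6.27 and 7.21 in AIL arrays, with a median of 6.83, against 6.11, 5.97 and 5.46 in CBA/CaH and 6.15, 5.79 and 5.95 in QSi5. The lowest AIL array was just above the highest parental one. It was higher by 0.97 than in CBA/CaH (SE 0.17, limma adjusted p = 0.000327) and by 0.85 than in QSi5 (SE 0.17, adjusted p = 0.000884), while Prelp 1416322_at was not called, at 0.23 and -0.01. Aspn 1448421_s_at was higher by 0.42 than in CBA/CaH (adjusted p = 0.0341) and by 0.58 than in QSi5 (adjusted p = 0.0052). The Aspn call against CBA/CaH was lost without lactating CBA/CaH array 2 (0.32, adjusted p = 0.175) or 3 (0.46, 0.0722), and without AIL AQ array 1 (0.39, 0.0517) or 2 (0.41, 0.0502). Aspn 1416652_at was not called, at 0.66 (adjusted p = 0.0548) and 0.49 (0.138). Against CBA/CaH it was called without AIL AC array 4 (0.72, 0.0386) or 5 (0.72, 0.0382) or AIL AQ array 5 (0.70, 0.046).

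Bgn 1448323_a_at ran between 8.37 and 9.14 in AIL arrays, with a median of 8.83, against 8.33, 8.61 and 8.61 in CBA/CaH and 8.05, 8.53 and 8.06 in QSi5. The AIL arrays overlapped with both parents. All 3 Bgn probe sets were called higher than in QSi5, by 0.61, 0.58 and 0.26, and none was called against CBA/CaH, where they differed by 0.30, 0.36 and 0.16. Without AIL AC array 5 Bgn 1448323_a_at was called there too (0.36, adjusted p = 0.0467). Against QSi5, Bgn 1416405_at was not called without QSi5 array 1 (0.60, adjusted p = 0.0582) or 3 (0.46, 0.115). Bgn 1437889_x_at was not called without any 1 of the 3 QSi5 arrays (adjusted p between 0.0589 and 0.11), nor without array 3 of AC (0.24, 0.0521) or of AQ (0.24, 0.0508).

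Fmod 1415939_at ran between 6.63 and 7.49 in AIL arrays, with a median of 7.25, and overlapped both parents, with 7.04, 7.38 and 6.98 in CBA/CaH and 7.26, 6.73 and 7.32 in QSi5. It differed by 0.06 against CBA/CaH (95% interval -0.25 to 0.38) and 0.09 against QSi5 (-0.22 to 0.41). Fmod 1456084_x_at ran between 4.16 and 5.42, with a median of 4.95, against 6.20, 5.32 and 5.72 in CBA/CaH and 4.53, 4.01 and 4.36 in QSi5, and overlapped both. It was lower than in CBA/CaH by 0.82 (limma adjusted p = 0.00578), a call lost without CBA/CaH array 1 (-0.59, adjusted p = 0.0607). It was higher than in QSi5 by 0.63 (adjusted p = 0.0242), a call lost without QSi5 array 2 (0.48, 0.152) or 3 (0.66, 0.0509). The AIL mean on this probe set lay between those of its parents, and all AIL arrays lay below all pregnant arrays. Fmod 1437685_x_at was called higher than in QSi5 by 0.31 (adjusted p = 0.044). Leaving out single arrays ended that call for 10 of 13 arrays, with adjusted p between 0.0508 and 0.302. Fmod 1437324_x_at and Fmod 1438966_x_at differed from CBA/CaH by -0.38 and -0.30, called without AIL AC array 5 (-0.42, 0.0322) and array 4 (-0.33, 0.0259) in that order. Against QSi5, Fmod 1437718_x_at differed by 0.48, called without QSi5 array 3 (0.81, 0.00832) or AIL AC array 2 (0.56, 0.0326). Fmod 1438966_x_at differed from QSi5 by 0.29, called without QSi5 array 1 (0.38, 0.0432) or AIL AC array 3 (0.33, 0.0261).

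**Figure D4:**
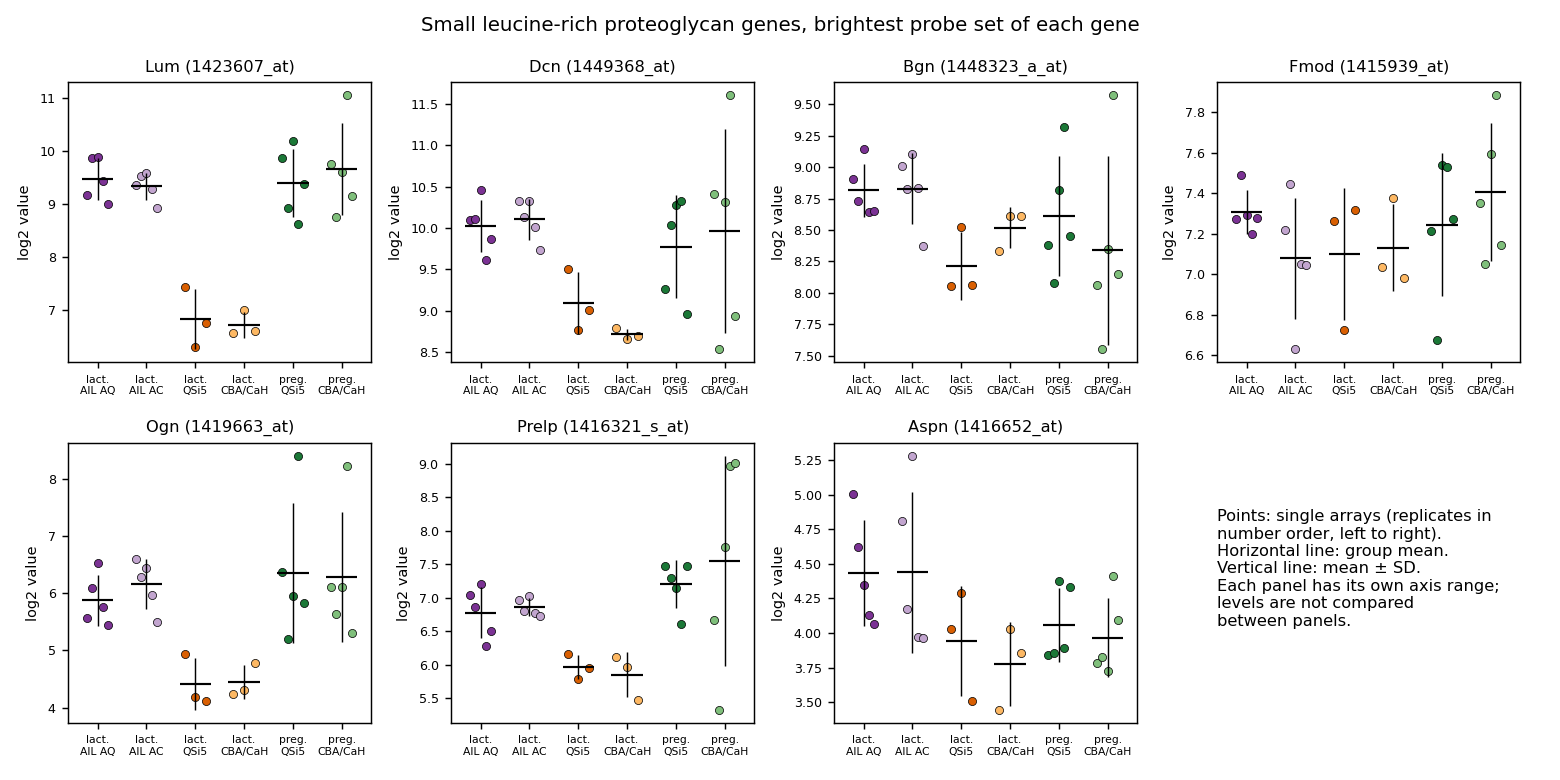
Log2 value (y axis, 1 scale per panel) of the brightest probe set of each of the 7 genes in the 6 groups (x axis), 1 point per array, with group mean and SD as lines. In the Lum panel the lactating QSi5 and CBA/CaH arrays sit between 6.30 and 7.42, and all AIL and pregnant arrays at 8.63 or above.

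The AIL arrays also differed from the lactating parents in a technical value. The Gapdh 3' minus 5' difference was between 0.537 and 0.800 in AIL arrays, with no overlap with CBA/CaH (1.12 to 2.02) or with QSi5 (1.48 to 1.62). With that value as a covariate, 1 of 18 member probe sets was called against each parent, and it was Lum (adjusted p = 0.0236 against CBA/CaH and 0.0215 against QSi5). The calls over all probe sets fell to 1.24% and 1.86% in that fit, and the set of arrays and this value cannot be told apart. The difference for Dcn 1449368_at was then 1.47 against CBA/CaH (adjusted p = 0.0705) and 1.09 against QSi5 (0.138), and for Ogn 1419663_at it was 2.06 (0.0695) and 2.08 (0.0515). It was smaller for Ogn 1419662_at, at 0.57 (0.548) and 0.69 (0.384), and for Prelp 1416321_s_at, at 0.62 (0.467) and 0.51 (0.504). The median over the 7 genes was 0.62 against CBA/CaH and 0.52 against QSi5 in that fit. With only AIL arrays 1 to 3 of each code, 13 member probe sets were called against CBA/CaH and 11 against QSi5, and with only arrays 4 and 5, 6 and 7.

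Between the AQ and AC codes of the intercross, limma called 0 of 18 member probe sets, with 1 at an unadjusted p under 0.05, beside 0% of all probe sets higher and 0% lower, of which 1289 had an unadjusted p under 0.05. The 1 was Fmod 1456084_x_at, which read 5.11, 5.25, 5.40, 5.42 and 4.78 in AQ glands, against 4.74, 4.73, 4.16, 5.30 and 4.39 in AC glands (0.53, SE 0.20, unadjusted p = 0.0156). AC array 4 was as high as the AQ arrays. For Lum the AQ minus AC difference was 0.14 (95% interval -0.29 to 0.57).

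Relatives of the family outside the 7 members were mostly dim. In pregnancy the means of Kera, Epyc, Omd, Optc, Nyx and Ecm2 lay between 3.40 and 4.78, below the array medians, which leaves little room to measure a fall. Of 8 measured, 4 were called higher and 0 lower at lactation in each strain, beside 32.3% higher and 20.7% lower of all probe sets in CBA/CaH and 35.9% and 23.1% in QSi5, and counts this small do not set the relatives apart from those shares. They were Optc (opticin, 1.29 in CBA/CaH and 0.72 in QSi5), Chad (chondroadherin, 0.91 and 1.02) and Ecm2 (0.60 and 0.99) in both, Omd (osteomodulin, 0.34) in CBA/CaH and Nyx (nyctalopin, 0.38) in QSi5. Kera, Epyc and Podn were not called. The mean level of the 8 was between 4.73 and 5.01 in lactating parental arrays, against 4.29 to 4.68 in pregnant ones. In AIL glands Chad was lower by 0.52 than in CBA/CaH and 0.45 than in QSi5, and Ecm2 lower by 0.54 than in QSi5. Podnl1 and Tsku were not analysed here.

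Most of the collagens that these proteins sit on were lower at lactation. Of 14 collagens and fibril partners, 11 were lower and 0 higher at lactation in CBA/CaH and 10 and 0 in QSi5, with medians of -1.23 and -1.38. Over all probe sets 20.7% were lower and 32.3% higher in CBA/CaH, and 23.1% and 35.9% in QSi5. Col1a1 differed by -2.09 and -2.29 and Col1a2 by -1.83 and -2.30, the chains of type I collagen. The QSi5 count was 5 without the arrays standing apart. For AIL glands the shares over all probe sets were 14.7% higher and 17.4% lower than in CBA/CaH, and 15.7% and 20.3% than in QSi5. Of the 14 genes, 8 were higher in AIL glands than in CBA/CaH and 9 than in QSi5, with 0 lower. With the Gapdh covariate 0 were called, while the medians were 0.79 against CBA/CaH and 0.69 against QSi5, beside 0.84 and 0.70 without it.

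Of 21 enzymes that build dermatan and keratan sulphate chains, 9 were called lower and 3 higher in CBA/CaH, with 10 and 3 in QSi5. The shares over all probe sets were 20.7% lower and 32.3% higher in CBA/CaH, and 23.1% and 35.9% in QSi5. Chst1, the sulphotransferase of keratan sulphate, differed by -4.07 and -3.78, and Dsel, a dermatan sulphate epimerase, by -2.42 and -2.85. Ust, which sulphates the uronic acid of these chains, rose by 1.44 and 1.63, and Chst3, which sulphates chondroitin, by 0.82 and 0.51. The mean level of the list was between 6.17 and 6.35 in lactating parental arrays, against 6.88 to 7.11 in pregnant ones.

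Of 11 TGF-beta ligands, receptors and latency proteins, partners of decorin, biglycan and asporin, 9 were lower and 0 higher in each strain. Among all probe sets 20.7% were lower and 32.3% higher in CBA/CaH, and 23.1% and 35.9% in QSi5. Ltbp3 differed by -3.26 and -3.44 and Ltbp1 by -2.68 and -2.84, both binders of latent TGF-beta. Of 12 cell surface receptors of decorin, biglycan and lumican, 3 were higher and 6 lower in each strain, and the higher count is not above those shares. Tlr4 rose by 1.10 and 1.21 and Tlr2 by 1.47 and 0.83, the Toll-like receptors that biglycan engages. Met, the hepatocyte growth factor receptor bound by decorin, differed by -3.15 and -3.81, and Lrp1, an endocytic receptor, by -1.75 and -2.22.

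Of 12 proteases that act on these proteoglycans, 3 were called lower and 1 higher in CBA/CaH, with 5 and 2 in QSi5, beside 20.7% lower and 32.3% higher of all probe sets in CBA/CaH and 23.1% and 35.9% in QSi5. The lower count in CBA/CaH is near that share. Mmp9 rose by 0.68 and 0.65, while Mmp2 differed by -2.11 and -2.13 and Htra1, a serine protease, by -1.95 and -1.67. Of 13 large and cell surface proteoglycans, 5 were called lower and 3 higher in CBA/CaH, with 5 and 2 in QSi5. The syndecans divided, with Sdc4 up by 1.86 and 1.51, Sdc3 up by 0.63 and 0.79, and Sdc1 down at -2.28 and -3.28. Vcan (versican) differed by -1.90 and -2.22.

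Markers of several cell types differed between the same groups as the members, and their part in the results was not tested. Among all probe sets 20.7% were lower and 32.3% higher at lactation in CBA/CaH, and 23.1% and 35.9% in QSi5. In AIL glands 14.7% of all probe sets were higher and 17.4% lower than in CBA/CaH, and 15.7% and 20.3% than in QSi5. Several counts below are near these shares and do not set their short lists apart. Of 12 fibroblast markers, 8 were lower at lactation in each strain, with 1 higher in CBA/CaH and 2 in QSi5. In AIL glands 7 of the 12 were higher and 0 lower than in CBA/CaH, and 6 higher and 1 lower than in QSi5. With the Gapdh covariate 0 of the 12 were called against either parent, with medians of 0.42 and 0.48. Of 7 epithelial markers, 6 were lower at lactation in CBA/CaH and 7 in QSi5, with mean levels of 9.05 to 10.33 in lactating parents, against 11.15 to 12.19 in pregnancy. In AIL glands 2 of the 7 were higher and 1 lower than in CBA/CaH, and 2 higher and 0 lower than in QSi5. Of 5 white adipocyte markers, 4 were lower in CBA/CaH and 3 in QSi5, and 4 were higher in AIL glands against each parent, with mean levels of 8.82 to 10.04 in AIL arrays, against 7.91 to 8.54 in lactating parents. Without the arrays standing apart 2 of the 5 adipocyte markers were lower at lactation in CBA/CaH and 1 in QSi5, and with the Gapdh covariate 0 were called in AIL glands. Of 6 myoepithelial markers, 6 were lower at lactation in each strain, and 1 was higher in AIL glands than in CBA/CaH and 3 than in QSi5. Of 6 endothelial markers, 3 were lower in each strain, and 2 and 4 were higher in AIL glands. Of 6 pericyte and smooth muscle markers, 2 were lower in CBA/CaH and 3 in QSi5, and 2 and 3 were higher in AIL glands. Of 6 macrophage markers, 3 were lower at lactation in each strain, and 5 were higher in AIL glands than in CBA/CaH and 4 than in QSi5. For these 4 lists too, 0 were called in AIL glands with the Gapdh covariate. Of 7 tendon and cartilage markers, tissues rich in Fmod and Prelp, 5 were higher and 1 lower at lactation in each strain. Their mean levels were between 5.01 and 5.51, against 4.71 to 5.17 in pregnancy, all near the array medians. In AIL glands 5 of these 7 were lower and 0 higher than in CBA/CaH, and 4 lower and 1 higher than in QSi5. Of 5 B and plasma cell markers, 1 was higher at lactation in CBA/CaH and 5 in QSi5, while in AIL glands 2 were higher than in CBA/CaH and 2 lower than in QSi5. Of 3 Schwann cell markers, 1 was higher and 1 lower at lactation in each strain. In AIL glands 2 of the 3 were lower than in CBA/CaH and 1 was lower than in QSi5. Of 5 brown adipocyte markers, 1 was higher and 2 lower at lactation in CBA/CaH, with 2 higher and 0 lower in QSi5, and 1 was lower in AIL glands than in QSi5. Of 9 muscle markers 0 were called in AIL glands, and 1 was higher at lactation in each strain. Without the arrays standing apart, among them 2 pregnant QSi5 arrays set apart by those same markers, 7 of the 9 muscle markers were higher in CBA/CaH and 4 in QSi5.

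**Figure D5:**
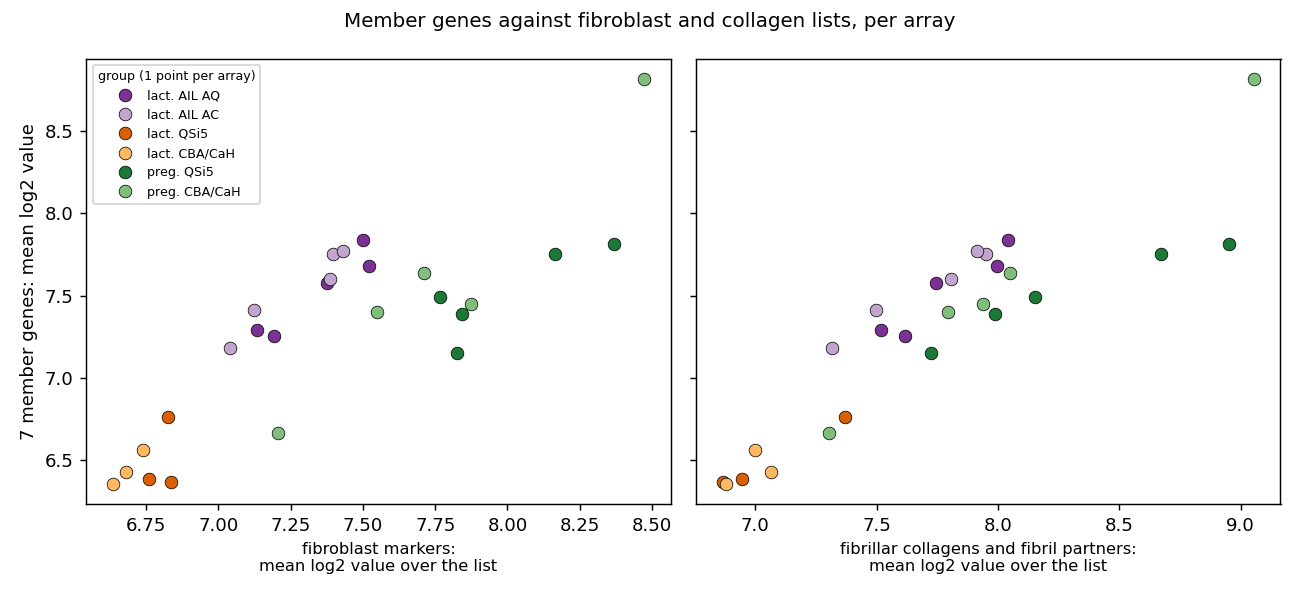
Mean log2 value of the 7 member genes (y axis) against the mean of 12 fibroblast markers (left, x axis) and of 14 collagens and fibril partners (right, x axis), 1 point per array, coloured by group. The 6 lactating parental arrays have member means between 6.36 and 6.77, the 10 AIL arrays between 7.18 and 7.84, and the pregnant arrays between 6.67 and 8.81.

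Within groups, members correlated to differing degrees. Over the deviations of 26 arrays from their group means, the 21 pairs of member genes had Pearson's r between -0.04 and 0.82 with a median of 0.47, and without both pregnant arrays 4 the median was 0.29. The genes most like the members' mean deviation were Col6a3 (r = 0.949), Ccdc80 (0.909), Col6a1 (0.907), Col5a2 (0.907) and Cdc42ep2 (0.905). Without pregnant arrays 4 these values were 0.899, 0.821, 0.852, 0.842 and 0.766 over 24 arrays. All values come from the same arrays, which share their normalization and their mix of cells.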

How the data were processed

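The authors deposited log2 expression values per probe set, made with RMA per the submitters' processing notes, from RNA of frozen inguinal mammary glands extracted with a Qiagen kit per the labels' protocols. RMA corrects background, sets the arrays' distributions alike and summarises probes. Its version is not given in the sources used here, nor whether all arrays were run together. Values ran from 2.34 to 15.1 and none was missing. No 2 arrays were identical.

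The array annotation gave 34945 probe sets 1 symbol, 932 several and 9160 none. After 64 controls were left out, limma 3.58.1 (lmFit and eBayes, R 4.3.3) was fitted to 45037 probe sets, first on the 16 parental arrays (stage, strain, interaction), then on the 16 lactation arrays for the intercross, as the mean of AQ and AC against each parent. Adjustment was by Benjamini-Hochberg across those 45037. The models were tested on simulated data. Arrays give no counts, so their number limits the precision.

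For counts of genes, the brightest probe set (highest mean of the 26 arrays) stood for its gene. Named genes were all members, all measured relatives, at most 2 called genes at each end of a list by stage difference, and the 5 genes most like the members. The members and lists were chosen with earlier results of these data known. In the lists, 175 of 185 genes were measured. Arrays stood apart where the median of a muscle, brown fat or B cell marker list, or the Gapdh difference, lay over 1 log2 unit above its group's median. Alternatives were a filter at a mean of 5, quantile normalization, equal array medians, other arrays in the fit, another variance model, array weights, a replicate block, the Gapdh value as a covariate, and single arrays left out. Leaving out both pregnant arrays 4, splitting the AIL arrays by number, and the list counts under other settings were chosen after seeing the data. Promoters were read from a RefSeq table and searched on both strands.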

Additional observations from a re-analysis of the deposited data

Results flagged for a closer look

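In 72 sets of 5 arrays (18 probe sets in the 4 groups of that size), 5 held a single array farther from the rest than Dixon's 95% value allows, where chance gives about 1 in 20. A count of 5 in 72 is near that rate, and probe sets of 1 gene are not independent. Pregnant QSi5 array 4 and pregnant CBA/CaH array 4, which are different samples, account for 4 of them. Fmod 1437718_x_at read 8.21 in pregnant QSi5 array 4, against 6.35 to 6.86 in the others of its group, and Fmod 1438966_x_at read 5.49 there, against 4.12 to 4.45. That array had the widest Gapdh 3' minus 5' difference, 6.50. Ogn read 8.22 on 1419663_at and 6.75 on 1419662_at in pregnant CBA/CaH array 4, against 5.31 to 6.12 and 4.91 to 5.26 in the others. That array's Gapdh difference was 0.890, the lowest of the pregnant arrays. The other was low, Aspn 1448421_s_at at 4.08 in pregnant QSi5 array 2, against 5.24 to 5.52.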

How the results depend on the processing

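Lum kept its direction and its call in both stage and both intercross comparisons under every alternative run. Over all members and comparisons, 2955 of 3118 recomputed values were counted as the same, 104 were no longer called and 57 became called. The other 2 turned direction and were called in at least 1 of the fits. Differences near 0 that were not called could change sign without being counted as turned. The median AQ minus AC difference over the 7 genes was -0.015, and 0.030 without the arrays standing apart. Both of those 2 were Bgn 1437889_x_at under quantile normalization, at 0.61 for the QSi5 stage difference (adjusted p = 0.0459) and -0.075 for AIL minus QSi5. The cause was not tested.

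The QSi5 stage count was 6 without the arrays that stood apart, with fewer arrays in the fit. With AIL minus CBA/CaH it was 13 under the replicate block or with AIL arrays 1 to 3 alone, and 1 with the Gapdh covariate. With AIL minus QSi5 it was 3 with all 26 arrays in 1 fit, 7 with AIL arrays 4 and 5 alone and 1 with the Gapdh covariate. The strain count at lactation was 1 with only the groups compared, with array weights, with the Gapdh covariate and without both pregnant arrays 4, and the strain count at pregnancy was 1 in that last setting. Leaving out single arrays gave 6 to 10 calls for stage in CBA/CaH, 7 to 10 in QSi5, 6 to 10 and 8 to 11 for AIL minus CBA/CaH and minus QSi5, and 0 elsewhere. Equal array medians moved the median stage difference of all probe sets to -8.33e-05 in CBA/CaH and -0.03 in QSi5, where 10 and 9 members were called.

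Same-numbered arrays of different groups had deviations that correlated between -0.426 and 0.316, under 0.1 in 13 of 19 pairs, so the numbers were not taken to pair the samples. Within the intercross 4 of 5 AQ and AC pairs were over 0.1 (0.144 to 0.316) and 1 was not (0.00737). The members' mean deviation was above 0 in AIL arrays 1 to 3 (0.17 to 0.52) and below 0 in arrays 4 and 5 (-0.74 to -0.30) of both codes. A replicate block gave 8 and 10 stage calls, 13 and 11 intercross calls and 0 for the other comparisons. The limits are the 3 arrays per lactating parent, dim probe sets such as those of Aspn, and the Gapdh value by which all AIL arrays differ from the lactating parents.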
